A study of Homo sapiens with 12 samples.

Results

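The AKT inhibitor and the EZH2 inhibitor were compared directly with each other, as 3 libraries of C4.2B cells given ipatasertib (AKTi) against 3 given tazemetostat (EZH2i), out of 12 libraries in the series. The question of this comparison was which genes and processes separate the single agents, and every gene that passed an expression filter entered it (16646 of 58735 genes). C4.2B is a castration-resistant prostate cancer line derived from LNCaP, an androgen-responsive line. EZH2i cells had 1 µM tazemetostat for 6 days and then for a further 24 hours, whereas AKTi cells had 0.25 µM ipatasertib for 24 hours only. The vehicle arm (DMSO) had neither drug, the combination arm had both on the same schedule, and in the final 24 hours the cells of all arms were in medium with 10% charcoal-stripped FBS, serum from which steroid hormones have been removed. The drug, its dose and its length of exposure differ together between the arms compared, so their effects cannot be told apart in what follows. By the study's methods plates were seeded in triplicate after the pretreatment, so the 3 replicates of an arm may share a pretreated culture, and p-values measure the spread between these plates.

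EZH2 is the catalytic subunit of Polycomb repressive complex 2 (PRC2), which methylates histone H3 at lysine 27 and keeps developmental genes silent. AKT is the kinase that carries PI3K signaling to growth, nutrient uptake and protein synthesis, and it holds FOXO transcription factors out of the nucleus. In prostate cancer cells PI3K signaling and the hormone response are known to restrain each other.

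Total counts were 14133755 to 14815838 in AKTi, 14560651 to 21021563 in EZH2i, 14565714 to 22276417 in DMSO and 15273647 to 18793827 in the combination. The 9 markers of luminal prostate epithelium summed to 6470 to 6680 CPM (counts scaled to a common library size) in EZH2i, 5880 to 6060 in AKTi and 3780 to 3910 in DMSO, and none was at 0. Markers of other cell types were low. The 7 fibroblast markers summed to 18.8 to 20.5 CPM in EZH2i and 7.64 to 8.97 in AKTi, with 4 of them under 1 CPM in all 6 libraries and COL1A2 at 0, and the 5 endothelial markers summed to 5.74 to 6.56 CPM and 3.48 to 4.34, with KDR at 0. Basal, leukocyte and erythroid markers summed to at most 1.69 CPM in any of the 6 libraries. In bulk RNA, fewer cells of a type and less RNA per cell cannot be told apart.

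The agents differed in about as many genes in each direction, but the large differences lay on the EZH2i side. By edgeR's quasi-likelihood test at an adjusted p (Benjamini-Hochberg over all tested genes) under 0.05, 8396 genes differed (50.4% of those tested). Of these, 4226 were higher with EZH2i than with AKTi (25.4%) and 4170 were lower (25.1%). The median absolute log2 fold change of the called genes was 0.54. At least 2-fold differences were found in 1497 genes that were higher with EZH2i (8.99%) and 484 that were lower (2.91%). Requiring 10 counts in every library, which removes genes silent in 1 arm, left 640 genes at least 2-fold higher and 330 genes at least 2-fold lower. With the filter used here, differences were at least 4-fold in 534 higher and 30 lower genes. Of those 534 genes, 26 had no count in any AKTi library, and the size of their fitted fold change is not measured. The libraries of the arms did not overlap in 9330 genes, which is 56% of those tested. The even split depended on the scaling between libraries, since 60.8% of the calls were higher with EZH2i when library size alone was used and 57.6% with upper-quartile scaling, against 50.3% here. These scalings moved the median log2 fold change of all genes from 0.017 to 0.102 and 0.078.

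**Figure D1:**
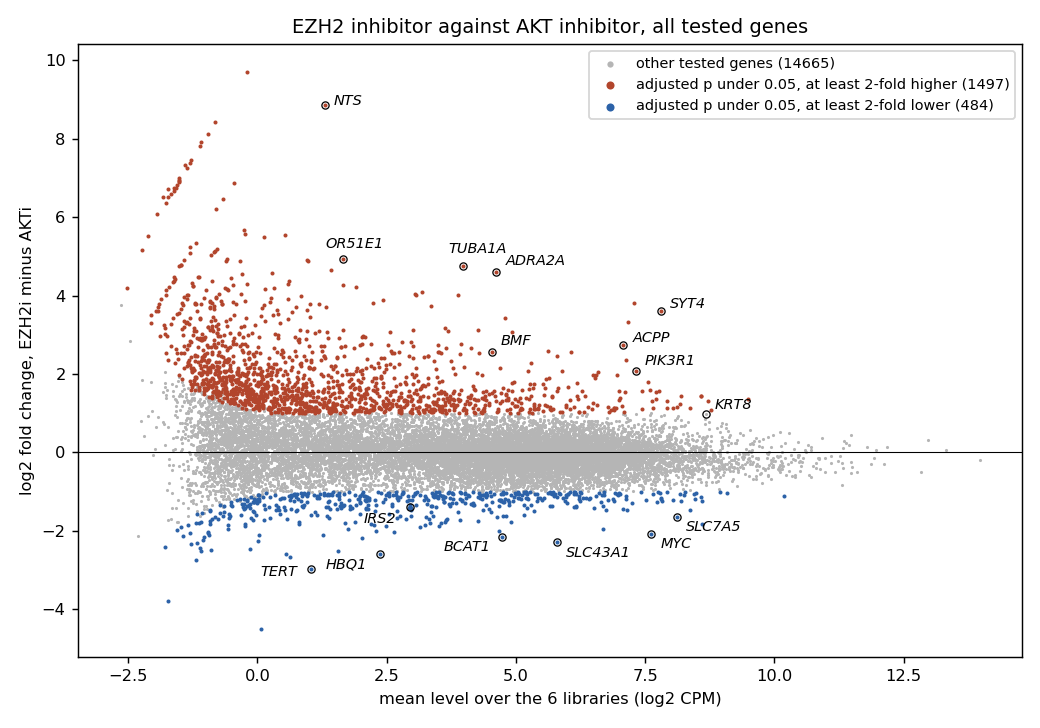
Each point is a tested gene, with its mean level over the EZH2i and AKTi libraries (log2 CPM) on the horizontal axis and the log2 fold change, EZH2i minus AKTi, on the vertical axis. The 1497 genes at least 2-fold higher (red) reach further from 0 and lie further to the left than the 484 at least 2-fold lower (blue), and 16 genes named in the text are ringed.

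The genes that were at least 2-fold higher with EZH2i were mostly close to silent in vehicle. That level was measured in libraries outside this comparison, but the expression filter used all 4 arms. A gene near silent in DMSO passed it only through libraries of other arms, so the filter can itself raise the share of such genes here. Their median in DMSO was 0.738 CPM (quartiles 0.266 and 2.88), and 864 of the 1497 (57.7%) were under 1 CPM there, against 2868 of all 16646 tested genes (17.2%). The genes at least 2-fold lower had a median of 10.9 CPM, with 57 of 484 (11.8%) under 1 CPM, and the median of all tested genes was 16.7 CPM. Among the 1497 higher genes, all 3 EZH2i libraries lay above the DMSO range in 1362, while the AKTi libraries lay above that range in 341, below it in 175 and overlapped it in 981. Among the 484 lower genes, EZH2i lay below the DMSO range in 401, and AKTi lay above it in 148, below it in 112 and overlapped it in 224. Of all 16646 tested genes, EZH2i lay above the DMSO range in 5628 and below it in 5398. AKTi lay above it in 4149 and below it in 4351. Long intergenic noncoding RNAs made up 8.02% of the higher genes and 5.43% of all tested genes, and the median gene length in the count table was 4468 bases in the higher genes, 3436 in the lower genes and 4353 overall. In the combination arm the mean level was closer to EZH2i than to AKTi, on the log2(CPM + 0.1) scale, in 1314 of the 1497 higher genes (87.8%) and 362 of the 484 lower genes (74.8%). The combination had tazemetostat on the EZH2i schedule, and the share over all tested genes was not computed. Among the autosomes, the share of tested genes at least 2-fold higher ran from 4.38% on chromosome 19 to 14% on chromosome 6. Since the classes were chosen on the EZH2i and AKTi libraries, these shares describe them and were not tested.

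**Figure D2:**
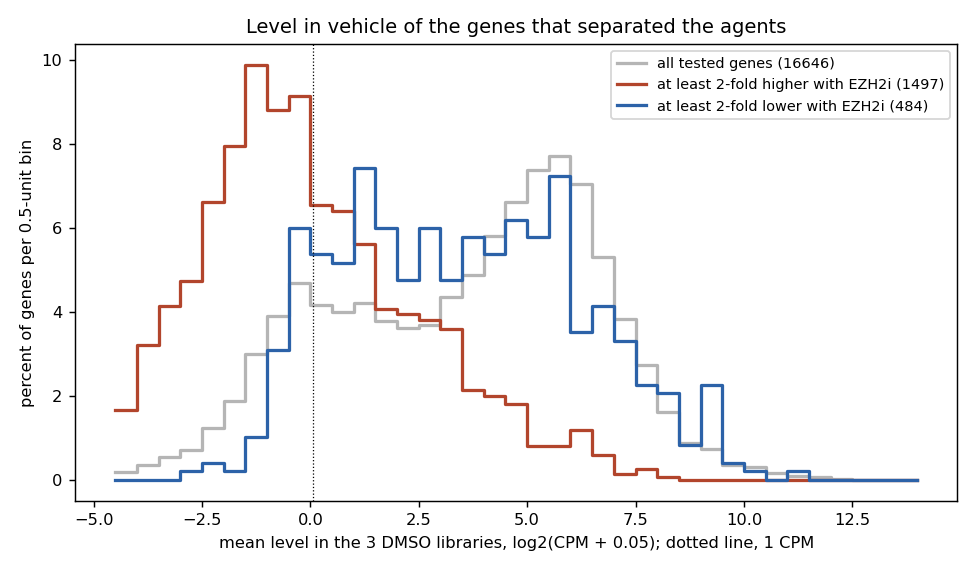
The lines give, in bins of 0.5 log2 units, the percent of genes at each mean level in the 3 DMSO libraries, for all tested genes (gray), genes at least 2-fold higher with EZH2i than with AKTi (red) and genes at least 2-fold lower (blue). The red line peaks to the left of 1 CPM (dotted), where 57.7% of its genes lie, against 11.8% for blue and 17.2% for all genes.

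The largest differences among called protein-coding genes with a mean of at least 1 log2 CPM over the 6 libraries and no overlap between the arms were in NTS, OR51E1, TUBA1A, EPHA5 and ADRA2A, and AKTi itself left such genes within or moved them to either side of the vehicle range. NTS (chromosome 12, 85874295 to 85882992 on hg38), the gene of the neuropeptide neurotensin, had 621, 548 and 595 normalized counts in the EZH2i libraries and 0, 0 and 3.39 in AKTi. The AKTi arm held 3 counts of NTS in all against 1950 with EZH2i, a ratio of 513 with a 95% counting interval of 175 to 2490 (exact binomial, counting error only). DMSO libraries had 1.09, 0 and 0, so NTS was close to absent from vehicle and AKTi cells alike and well above both in every EZH2i library. ADRA2A, which encodes the alpha-2A adrenergic receptor, had 2157, 1853 and 2005 normalized counts with EZH2i, 58.3, 61.5 and 129 with AKTi and 18.6, 16.7 and 15.02 in DMSO. It was higher by 4.59 on the log2 scale with EZH2i than with AKTi (SE 0.12, adjusted p = 4.15e-27), although AKTi alone was also above DMSO (2.33). TUBA1A, a neuronal alpha-tubulin with near-identical paralogs that could share its reads, had 1407, 1228 and 1339 with EZH2i against 34.99, 52.4 and 58.7 with AKTi, and here AKTi lay below the 78.8, 102 and 177 of DMSO. The log2 fold change between the agents was 4.76 (SE 0.16, adjusted p = 3.33e-24).

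The other 9 of the 12 largest log2 fold changes lay between 3.88 and 4.95. They were the olfactory receptor gene OR51E1 (4.95), the ephrin receptor gene EPHA5 (4.65), PLOD2, whose product hydroxylates collagen lysines (4.27), AHNAK2 (4.22), the heparan sulfate proteoglycan gene SDC2 (4.09), the transcription factor gene MAF (4.03), the sodium-glucose cotransporter gene SLC5A1 (4.02), the aspartyl protease gene BACE2 (4.01) and OLFM2 (3.88). SYT4, a synaptotagmin of secretory vesicles, combined a change of this order with a high level. It had 12434, 12552 and 12936 normalized counts with EZH2i, 1096, 986 and 1035 with AKTi and 754, 692 and 743 in DMSO. The log2 fold change was 3.60 (SE 0.061, adjusted p = 4.09e-33), and the combination libraries, at 13102, 11703 and 12261, overlapped EZH2i.

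**Figure D3:**
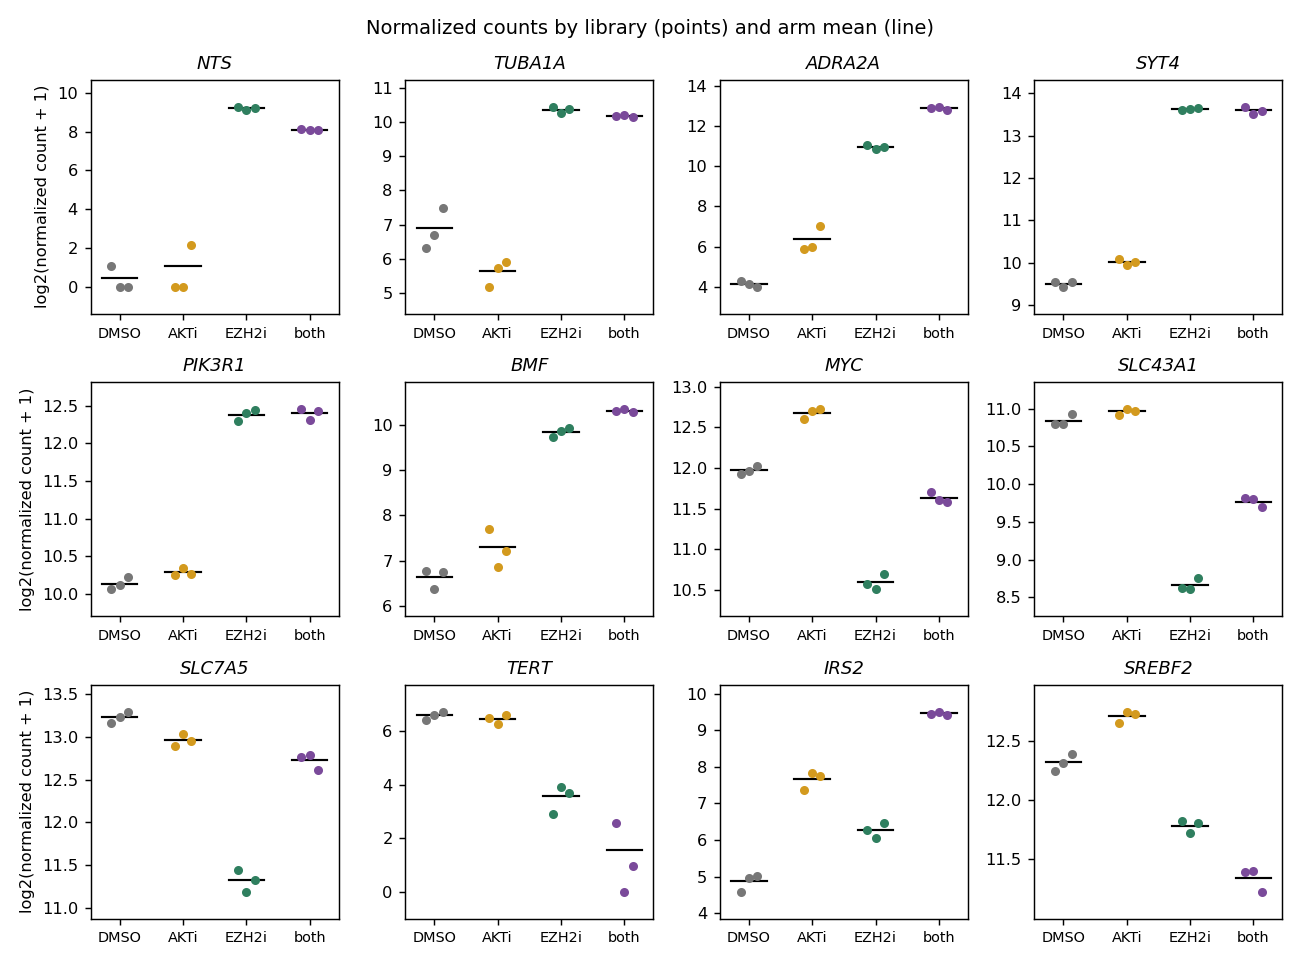
Each panel plots 1 gene as log2(normalized count + 1) in the 12 libraries (points) with the arm mean (line, "both" being the combination), and the vertical axes differ between panels and do not start at 0. NTS, TUBA1A, ADRA2A, SYT4, PIK3R1 and BMF are higher in every EZH2i library than in every AKTi library, whereas MYC, SLC43A1, SLC7A5, TERT, IRS2 and SREBF2 are lower.

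By the same rule, the genes lowest with EZH2i relative to AKTi were TERT, HBQ1, SLC43A1, WNT8B, BCAT1 and MYC, in that order. TERT, the catalytic subunit of telomerase, had 6.50, 14.2 and 11.9 normalized counts with EZH2i against 88.6, 76.3 and 97.1 with AKTi and 85.3, 96.8 and 105 in DMSO. AKTi and DMSO overlapped, and the difference between the agents was -2.96 on the log2 scale (SE 0.32, adjusted p = 5.81e-10). MYC (chromosome 8, 127735434 to 127741434 on hg38), a transcription factor that drives ribosome production and metabolism, behaved differently, in that the agents moved it to opposite sides of vehicle. It had 1525, 1456 and 1654 normalized counts with EZH2i, 3893, 3992 and 4186 in DMSO and 6228, 6654 and 6766 with AKTi, with no overlap between any 2 of these arms. The log2 fold change was -2.08 between the agents (SE 0.058, adjusted p = 2.26e-26), 0.71 for AKTi against DMSO (adjusted p = 3.1e-13) and -1.37 for EZH2i against DMSO (adjusted p = 1.78e-21). The combination, at 3346, 3132 and 3078, lay between EZH2i and DMSO.

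SLC43A1, a transporter of large neutral amino acids, had 395, 389 and 432 with EZH2i, 1941, 2038 and 2008 with AKTi and 1774, 1784 and 1947 in DMSO, a difference of -2.30 between the agents (SE 0.068, adjusted p = 1.15e-25). BCAT1, the cytosolic branched-chain aminotransferase, had 205, 183 and 219 against 953, 888 and 858, a log2 fold change of -2.15, and the combination was back at 869.6, 870.2 and 873, above every EZH2i library. The rest of the 12 smallest were the theta-globin gene HBQ1 (-2.59), the WNT ligand gene WNT8B (-2.20), the potassium channel gene KCNQ5 (-2.04), PDZRN4 (-1.999), HAGHL (-1.998), the mitochondrial folate enzyme gene ALDH1L2 (-1.96), COQ8A of coenzyme Q synthesis (-1.95) and PLEKHF1 (-1.91). COQ8A, HAGHL, HBQ1 and WNT8B, like MYC, were higher with AKTi than in DMSO (log2 fold changes 0.78, 0.70, 0.70 and 0.65) and lower with EZH2i than in DMSO (-1.17, -1.30, -1.89 and -1.55). Among long intergenic noncoding RNAs, the 3 largest differences were AC109779.1 (2.47), LINC01411 (2.06) and AC013652.1 (2.01), and the 3 smallest were AC019069.1 (-2.11), AC125807.2 (-1.86) and MNX1-AS1 (-1.65).

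The drug targets themselves differed little between the agents. EZH2 had 551, 608 and 555 normalized counts with EZH2i and 731, 602 and 683 with AKTi, both below the 1294, 1199 and 1218 of DMSO, and the EZH2i and AKTi libraries overlapped. Its log2 fold change between the agents was -0.23 (SE 0.079, adjusted p = 0.0125), a call that was lost with library size alone (adjusted p = 0.119), with upper-quartile scaling (adjusted p = 0.0644) and without AKTi library A (adjusted p = 0.0694). AKT1 did not pass the test (log2 fold change -0.12, adjusted p = 0.0862), and passed it without AKTi library A (adjusted p = 0.0468) or EZH2i library A (adjusted p = 0.019) or C (adjusted p = 0.0458). EZH1, the other catalytic subunit, was at -0.24 (adjusted p = 0.0515) with overlapping libraries, and passed without AKTi library A (adjusted p = 0.00833) or EZH2i library A (adjusted p = 0.0384) or C (adjusted p = 0.0487). AKT2 was lower with EZH2i (log2 fold change -0.19, adjusted p = 0.00239), a call lost with library size alone (adjusted p = 0.0813). Of the 12 tested PRC2 subunit genes 3 were higher and 4 lower with EZH2i. JARID2, an accessory subunit, was higher by 1.09 (SE 0.071, adjusted p = 1.92e-15) and PHF19, a Polycomb-like accessory subunit, was lower (log2 fold change -1.01, SE 0.17, adjusted p = 3.08e-06).

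The gene lists below were written from general knowledge of each process and described by counts and medians, not by a set test. They held 1083 genes in 35 lists, of which 908 were tested and the rest were left out by the filter or, for 2 symbols, had no match. Genes nearly silent in AKTi passed the filter through the EZH2i or combination libraries, so counts among tested members of mostly silent lists lean to the EZH2i side. A median given for a list is that of the log2 fold changes of tested members, and can be read against 0.017 for all tested genes. Shares of members called can be read against 25.4% higher and 25.1% lower among all tested genes. Values of each agent against DMSO are set beside them, and these share the DMSO libraries. By the same test 42.5% of genes differed between AKTi and DMSO and 64.1% between EZH2i and DMSO.

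**Figure D4:**
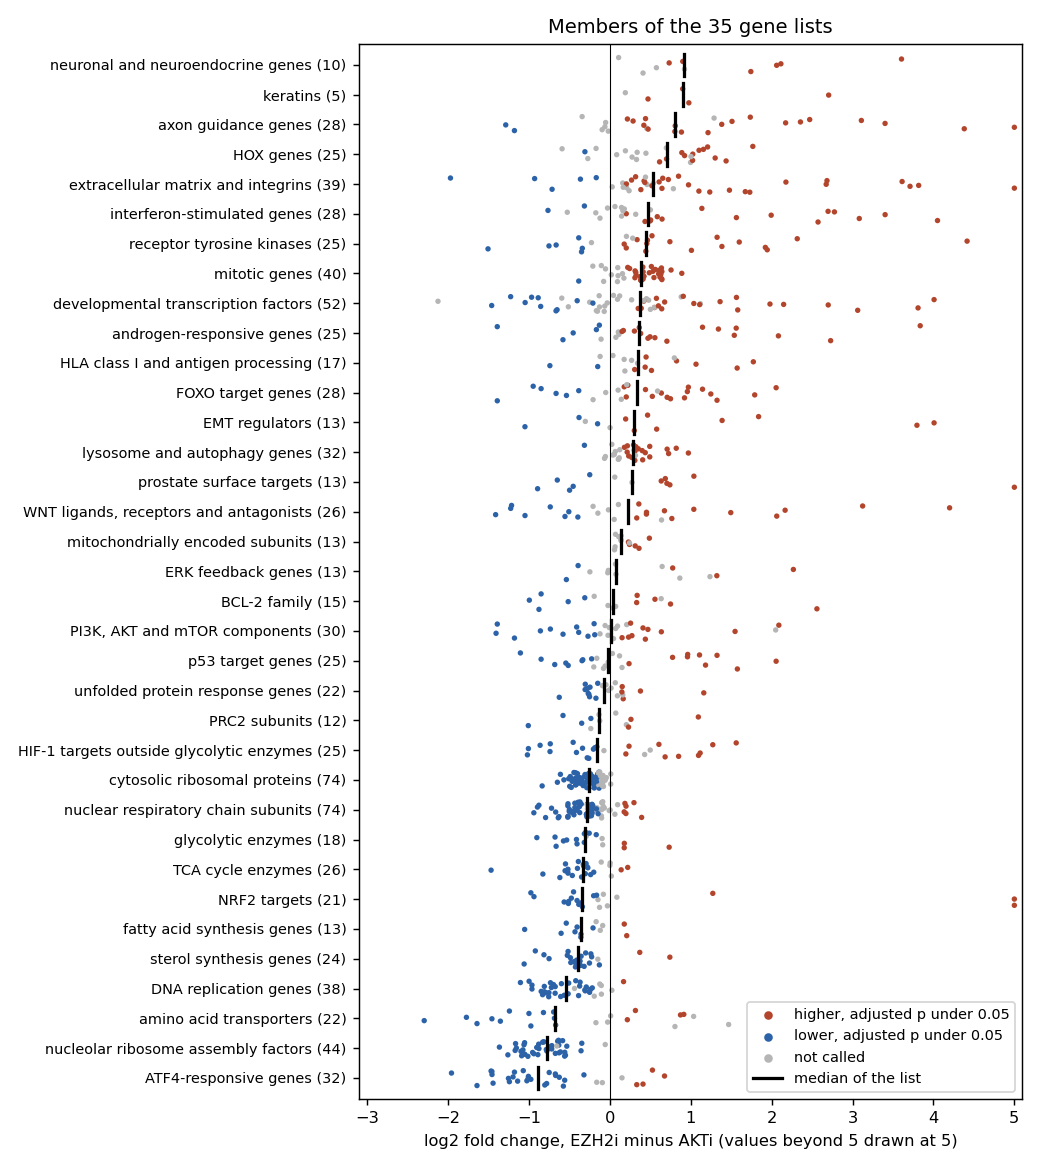
Each row is a gene list with the number of tested members, each point is a member at its log2 fold change, EZH2i minus AKTi (red, higher, blue, lower, both at adjusted p under 0.05, and gray, not called), and black bars are list medians. ATF4-responsive genes and nucleolar ribosome assembly factors lie furthest to the left (medians -0.89 and -0.78), and neuronal genes and keratins furthest to the right (0.91 and 0.90).

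Genes of ribosome production were lower with EZH2i. Of 44 nucleolar ribosome assembly factors, 41 were lower with EZH2i than with AKTi and none was higher, with 12 at least 2-fold lower and a median of -0.78. Against DMSO their median was -0.27 with AKTi and -1.08 with EZH2i. NPM3, a nucleolar chaperone, had 578, 475 and 489 normalized counts with EZH2i, 1333, 1359 and 1270.1 with AKTi and 1830.1, 1771 and 1537 in DMSO, so the arms fell in that order with no overlap. Its log2 fold change was -1.37 (SE 0.078, adjusted p = 4.26e-17). NOP16, a factor of the large subunit, was at -1.26 (SE 0.09, adjusted p = 2.11e-14) and GAR1, a protein of H/ACA ribonucleoproteins, at -0.35 (SE 0.088, adjusted p = 0.0012). The ribosomal proteins themselves shifted in the same direction by less, with 57 of 74 cytosolic ribosomal protein genes lower, none higher and a median of -0.25. RPL22 had 1992, 1915 and 2037 normalized counts with EZH2i against 2975, 3166 and 3183 with AKTi, a log2 fold change of -0.65 (SE 0.058, adjusted p = 7.4e-12).

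Genes that respond to ATF4, the transcription factor of amino acid shortage, had the lowest median of all 35 lists. Of 32 tested, 25 were lower with EZH2i, 15 of them at least 2-fold, and 4 were higher, with a median of -0.89. The median against DMSO was -0.29 with AKTi and -1.14 with EZH2i. SLC7A5, the light chain of the main transporter of large neutral amino acids, had 2777, 2329 and 2565 normalized counts with EZH2i, 7605, 8388 and 7952 with AKTi and 9156, 9654 and 10070 in DMSO. Its difference between the agents was -1.64 (SE 0.062, adjusted p = 1.83e-22). ASNS, asparagine synthetase, had 136, 124 and 119.9 with EZH2i, 307, 326 and 272 with AKTi and 315, 343 and 344 in DMSO (-1.25, SE 0.12, adjusted p = 2.5e-11). The combination libraries, at 468, 507 and 409, lay above all others for ASNS. Members that went the other way were ATF3, a stress-induced repressor (0.68, SE 0.087, adjusted p = 3.21e-08), and VLDLR, a lipoprotein receptor (0.53, SE 0.12, adjusted p = 0.000294).

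Amino acid transporters overlapped this list in SLC7A5 and other members and moved likewise, with 12 of 22 lower, 4 higher and a median of -0.68. SLC43A1 and SLC7A2, a cationic amino acid transporter (-1.77, SE 0.091, adjusted p = 2.2e-18), were the lowest. The unfolded protein response, which shares ATF4 as 1 of its arms, was less one-sided, with 10 of 22 genes lower, 5 higher and a median of -0.07. EIF2AK3, the PERK kinase upstream of ATF4, was higher with EZH2i by 1.16 (SE 0.079, adjusted p = 6.88e-15), and the ER chaperone cofactor gene SDF2L1 was lower (log2 fold change -0.63, SE 0.093, adjusted p = 5.21e-07).

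The cell cycle lists differed in opposite directions between the agents. Of 38 DNA replication genes, 31 were lower with EZH2i than with AKTi and 1 was higher (median -0.54). Of 40 mitotic genes, 29 were higher and 1 was lower (median 0.39). Both lists were below vehicle with both agents. The replication genes had a median of -0.84 with AKTi and -1.36 with EZH2i against DMSO, and the mitotic genes -1.33 with AKTi and -0.91 with EZH2i, so AKTi was the lower arm for mitosis and EZH2i for replication.

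MCM6, a subunit of the replicative helicase, had 821, 945 and 927 normalized counts with EZH2i, 1727, 1795 and 1739 with AKTi and 2481, 2420.1 and 2708 in DMSO (-0.96, SE 0.066, adjusted p = 6.08e-15). The licensing factor gene CDT1 was lower (log2 fold change -1.00, SE 0.078, adjusted p = 2.63e-13), as were the transcription factor genes E2F2 (-1.11, SE 0.17, adjusted p = 8.5e-07) and E2F1 (-0.75, SE 0.072, adjusted p = 3.63e-11). In the E2F family as the count table assigns it, 8 of 10 tested genes were lower and 1, TFDP2, was higher (median -0.63). CDC20, the activator of the anaphase-promoting complex, ran the other way, with 2592, 2490.5 and 2482 with EZH2i, 1616, 1683 and 1683 with AKTi and 4528, 4418 and 4581 in DMSO (0.60, SE 0.054, adjusted p = 9.74e-12). The proliferation marker MKI67 was higher with EZH2i by 0.53 (SE 0.059, adjusted p = 1.15e-09) and the kinetochore motor gene CENPE by 0.89 (SE 0.088, adjusted p = 9.64e-11). The exception among called mitotic genes was MAD2L1, a spindle checkpoint gene, which was lower with EZH2i (log2 fold change -0.38, SE 0.072, adjusted p = 2.4e-05). In the combination CDC20, at 630.1, 605 and 576, and MCM6, at 515, 447 and 497, lay below every library of either agent alone.

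Promoter sequences of a few members are shown here because they hold letters that are known to mark these lists. RefSeq promoter windows (GRCh38.p14, 250 bases before to 50 after a start site) were matched by symbol for 10939 of the 16646 tested genes. The CHR element, TTTGAA, on which repressor complexes of mitotic genes are known to sit, was present on either strand in 21 of 33 matched mitotic promoters (63.6%), 1 of 33 replication promoters (3.03%) and 1029 of 10939 promoters overall (9.41%). The E2F motif TTTGGCGC was in 7 of 33 replication promoters (21.2%), 0 of 33 mitotic promoters and 119 overall (1.09%). TGATGNAA, the element through which ATF4 acts, was in 5 of 23 matched promoters of ATF4-responsive genes (21.7%) and 189 overall (1.73%). The E-box CACGTG, which MYC can bind, was in 11 of 37 promoters of nucleolar factors (29.7%) and 1131 overall (10.3%). It was also in 5 of 33 mitotic (15.2%), 3 of 33 replication (9.09%) and 2 of 23 ATF4-responsive promoters (8.7%). The CHR element was also in 7 of 37 nucleolar (18.9%) and 1 of 23 ATF4-responsive promoters (4.35%). These matches describe letters in a window and not binding, they come with the known function of the lists, and the motifs were chosen after the lists' values were seen. Below are the 250 bases before the start, 5′ to 3′ on the strand of the gene, of called members with the smallest adjusted p that hold the motif there, with every match in capitals (a match on the other strand reads TTCAAA for the CHR element). CDC20 lies at chr1:43358731-43358980 (plus strand), MKI67 at chr10:128126424-128126673 (minus strand), MCM6 at chr2:135876444-135876693 (minus strand), E2F1 at chr20:33686386-33686635 (minus strand), ASNS at chr7:97872409-97872658 (minus strand) and UTP20, a factor of the small ribosomal subunit that was lower with EZH2i (log2 fold change -0.63, SE 0.085, adjusted p = 9.74e-08), at chr12:101279855-101280104 (plus strand).
CDC20: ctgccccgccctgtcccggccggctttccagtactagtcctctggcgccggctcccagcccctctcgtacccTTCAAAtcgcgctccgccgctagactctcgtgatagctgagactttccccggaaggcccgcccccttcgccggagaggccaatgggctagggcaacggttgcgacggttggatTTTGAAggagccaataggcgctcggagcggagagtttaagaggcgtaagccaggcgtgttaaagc
MKI67: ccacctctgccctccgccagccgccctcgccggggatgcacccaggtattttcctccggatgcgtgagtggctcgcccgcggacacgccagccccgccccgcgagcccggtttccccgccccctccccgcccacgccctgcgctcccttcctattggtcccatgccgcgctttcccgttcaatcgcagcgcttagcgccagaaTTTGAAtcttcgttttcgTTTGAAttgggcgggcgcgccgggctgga
MCM6: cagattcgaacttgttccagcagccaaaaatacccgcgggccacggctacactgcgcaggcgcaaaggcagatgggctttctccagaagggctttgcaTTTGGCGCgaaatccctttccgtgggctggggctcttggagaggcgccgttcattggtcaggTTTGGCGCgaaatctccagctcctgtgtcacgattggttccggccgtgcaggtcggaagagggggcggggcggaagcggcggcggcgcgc
E2F1: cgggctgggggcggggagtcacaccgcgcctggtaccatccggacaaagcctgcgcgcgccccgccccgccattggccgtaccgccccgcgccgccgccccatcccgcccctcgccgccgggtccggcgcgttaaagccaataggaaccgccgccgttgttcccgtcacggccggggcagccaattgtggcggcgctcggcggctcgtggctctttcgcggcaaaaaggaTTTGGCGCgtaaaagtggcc
ASNS: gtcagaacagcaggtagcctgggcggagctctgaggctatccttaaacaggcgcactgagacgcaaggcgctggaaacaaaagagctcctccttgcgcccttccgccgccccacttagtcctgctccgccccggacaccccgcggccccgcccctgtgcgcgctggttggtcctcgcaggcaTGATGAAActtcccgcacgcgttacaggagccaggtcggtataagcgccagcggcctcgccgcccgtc
UTP20: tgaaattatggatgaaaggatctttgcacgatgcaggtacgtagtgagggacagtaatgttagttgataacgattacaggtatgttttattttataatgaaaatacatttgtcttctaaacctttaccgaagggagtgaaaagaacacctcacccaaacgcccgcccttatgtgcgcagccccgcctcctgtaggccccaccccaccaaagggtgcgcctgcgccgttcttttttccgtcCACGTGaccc

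The 2 CHR elements of CDC20 and of MKI67 stand beside mitotic genes that were higher with EZH2i than with AKTi, and the 2 E2F motifs of MCM6 and the 1 of E2F1 beside replication genes that were lower. Genes with the same letters lay on either side for TGATGNAA, which ATF3, higher with EZH2i, holds in this window as ASNS does.

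Genes of energy metabolism were mostly lower with EZH2i than with AKTi, by modest amounts. Of 18 glycolytic enzyme genes, 12 were lower and 3 higher (median -0.31), of 26 genes of the TCA cycle and its feeder enzymes 20 were lower and 2 higher (-0.33), and of 74 nuclear genes of respiratory chain subunits 50 were lower and 6 higher (-0.28). Against DMSO the medians of these lists were -0.32, -0.12 and -0.26 with AKTi and -0.58, -0.48 and -0.58 with EZH2i. HK2, the inducible hexokinase, had 655, 631 and 650.2 normalized counts with EZH2i, 1216, 1229.6 and 1176 with AKTi and 1596, 1788 and 2015 in DMSO (-0.90, SE 0.076, adjusted p = 1.42e-12). LDHA, lactate dehydrogenase A, was below vehicle with both agents, at 8948, 9532 and 8919 with EZH2i, 10701, 10929 and 11079 with AKTi and 24227, 23557 and 25059 in DMSO, with a log2 fold change of -0.26 between them (SE 0.054, adjusted p = 0.00015). ENO2, the neuronal enolase, was higher with EZH2i (0.73, SE 0.18, adjusted p = 0.000648), and ENO3, the muscle enolase, was lower (-0.68, SE 0.13, adjusted p = 3.05e-05).

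In mitochondria, PCK2, which makes phosphoenolpyruvate, differed most on the TCA list, with 1422, 1323 and 1396 normalized counts with EZH2i, 3691, 3891 and 3878 with AKTi and 3337, 3493 and 3688 in DMSO (-1.47, SE 0.056, adjusted p = 3.34e-22). DLAT of the pyruvate dehydrogenase complex was lower (log2 fold change -0.83, SE 0.056, adjusted p = 5.37e-15), as were the respiratory chain genes CYC1 (-0.90, SE 0.069, adjusted p = 1.68e-13) and ATP5F1D (-0.94, SE 0.066, adjusted p = 1.48e-14). The 13 tested subunits encoded by mitochondrial DNA went the other way or were not called, with 5 higher, none lower and a median of 0.14. That count was 2 without AKTi library A or EZH2i library A, 3 without AKTi library C or EZH2i library B, 2 with DESeq2 and 10 with library size alone. MT-ND6 was higher by 0.49 (SE 0.088, adjusted p = 1.44e-05).

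Lipid genes followed the nuclear pattern, with 21 of 24 sterol synthesis genes lower with EZH2i and 2 higher (median -0.39), and 8 of 13 fatty acid synthesis genes lower and 2 higher (-0.36). SREBF2, the transcription factor of sterol synthesis, had 3621, 3386 and 3574 normalized counts with EZH2i, 6433, 6855 and 6762 with AKTi and 4860.1, 5091 and 5361 in DMSO, so the agents lay on opposite sides of vehicle (-0.92, SE 0.055, adjusted p = 1.47e-16). CYP51A1 was lower (log2 fold change -1.06, SE 0.13, adjusted p = 9.09e-09) as was the desaturase gene FADS1 (-1.05, SE 0.06, adjusted p = 4.07e-17), while the sterol transporter gene STARD4 was higher by 0.74 (SE 0.12, adjusted p = 1.74e-06). Against DMSO, STARD4 was lower with AKTi (-0.78, adjusted p = 1.02e-06) and not called with EZH2i (-0.04, adjusted p = 0.758). Among 21 NRF2 targets 13 were lower and 3 higher (median -0.34). The cystine transporter gene SLC7A11 was lower (log2 fold change -0.98, SE 0.064, adjusted p = 2.45e-15). The aldo-keto reductase genes AKR1C3 and AKR1C2, related paralogs that could share reads, were at 0 in every AKTi library. With EZH2i they had 41.2, 32.2 and 28.3 and 14.1, 12.3 and 14.9 normalized counts, respectively. That is at least 9.87-fold and 4.01-fold higher against a floor of 3 counts per library.

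The HIF-1 targets other than glycolytic enzymes, a list that keeps regulators of glycolysis such as SLC2A1, split, with 13 of 25 lower and 9 higher (median -0.16). HIF1A itself was higher with EZH2i, at 3486, 4033 and 3995 normalized counts against 2124, 2132 and 2124 with AKTi and 2378, 2294 and 2636 in DMSO (0.85, SE 0.061, adjusted p = 1.99e-14). NDRG1, a stress-responsive gene, was higher by 1.56 (SE 0.059, adjusted p = 1.74e-22) and HMOX1, heme oxygenase, by 1.27 (SE 0.1, adjusted p = 2.99e-13), whereas the transferrin receptor gene TFRC was lower (log2 fold change -1.02, SE 0.057, adjusted p = 2.26e-17) as was STC2 (-1.01, SE 0.058, adjusted p = 5.54e-17). SLC2A1, the glucose transporter GLUT1, was at -0.19 (adjusted p = 0.0287) with overlapping libraries. That call was lost without AKTi library B (adjusted p = 0.0506) or EZH2i library B (adjusted p = 0.183) or C (adjusted p = 0.0585), with library size alone (adjusted p = 0.252) or upper-quartile scaling (adjusted p = 0.142), and when all genes with any count were tested (adjusted p = 0.0656) or 10 counts were required in every library (adjusted p = 0.0645).

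FOXO target genes, which rise when AKT no longer restrains FOXO factors, had medians above DMSO with both agents, 0.57 with AKTi and 1.19 with EZH2i. Between the agents 16 of 28 were higher with EZH2i and 6 lower (median 0.33). SESN1, a stress-induced inhibitor of mTORC1 that is also on the p53 list, had 2949, 3184 and 3362 normalized counts with EZH2i, 773, 794 and 720.3 with AKTi and 544, 439.8 and 521 in DMSO (2.06, SE 0.067, adjusted p = 2.36e-24). IRS2, the insulin receptor substrate, was instead higher with AKTi, with 164, 228 and 215 against 76.9, 65.4 and 87.1 with EZH2i and 23.0, 29.9 and 31.6 in DMSO (-1.39, SE 0.14, adjusted p = 1.42e-10). The combination, at 704, 729 and 689.8, was above both. TNFSF10, which encodes the death ligand TRAIL, was higher with EZH2i by 1.79 (SE 0.21, adjusted p = 3.11e-09) and lay on either side of vehicle, at -1.03 for AKTi against DMSO (adjusted p = 0.00019) and 0.76 for EZH2i against DMSO (adjusted p = 0.000478). SOD2, mitochondrial superoxide dismutase, was lower (log2 fold change -0.95, SE 0.1, adjusted p = 4.95e-10).

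Receptor tyrosine kinase genes were more often higher with EZH2i, 16 of 25 against 6 lower (median 0.44). RET was higher by 2.32 (SE 0.47, adjusted p = 9.21e-05) from a low level, and PDGFRB was lower (log2 fold change -1.51, SE 0.37, adjusted p = 0.000924). Components of the PI3K, AKT and mTOR pathway split evenly, with 10 of 30 higher and 11 lower (median 0.02). PIK3R1 (chromosome 5, 68215720 to 68301821 on hg38), which encodes the regulatory subunit p85-alpha, had 5052, 5392 and 5551 normalized counts with EZH2i, 1223, 1304 and 1235 with AKTi and 1068, 1107 and 1196 in DMSO. It was higher by 2.09 with EZH2i than with AKTi (SE 0.059, adjusted p = 3.82e-26). EIF4EBP1, the repressor of cap-dependent translation that mTORC1 inactivates, was lower (log2 fold change -1.41, SE 0.064, adjusted p = 6.06e-20). ERK feedback genes, 3 of 13 higher and 2 lower, included DUSP5 (2.27, SE 0.34, adjusted p = 5.62e-07) and DUSP4 (-0.54, SE 0.1, adjusted p = 3.45e-05), phosphatases of ERK that moved apart. The 5 called were 3 with 10 counts required in every library. Against DMSO, DUSP5 was lower with AKTi (-1.97, adjusted p = 1.31e-05) and not called with EZH2i (0.30, adjusted p = 0.352).

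Cell death genes did not lean one way as a group. Of 15 BCL-2 family genes, 5 were higher and 5 lower with EZH2i (median 0.04). BMF, a BH3-only protein that promotes apoptosis, had 853, 929 and 969.7 normalized counts with EZH2i, 206, 115 and 147 with AKTi and 107, 81.3 and 107 in DMSO, the largest difference of the family (2.56, SE 0.11, adjusted p = 3.53e-20). BCL2L11, which encodes BIM, was higher by 0.75 (SE 0.08, adjusted p = 4.5e-10) and PMAIP1, which encodes NOXA, was lower (log2 fold change -1.00, SE 0.16, adjusted p = 2.55e-06). Among p53 targets, 9 of 25 were higher and 8 lower (median -0.02). CDKN1A, the cell cycle inhibitor p21, had 2211, 2086 and 2246 with EZH2i and 661, 729 and 805 with AKTi, on either side of the 1329, 1223 and 1193 of DMSO (1.58, SE 0.069, adjusted p = 2.26e-20). BBC3, which encodes PUMA, was lower with EZH2i (log2 fold change -0.85, SE 0.18, adjusted p = 0.000113).

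**Figure D5:**
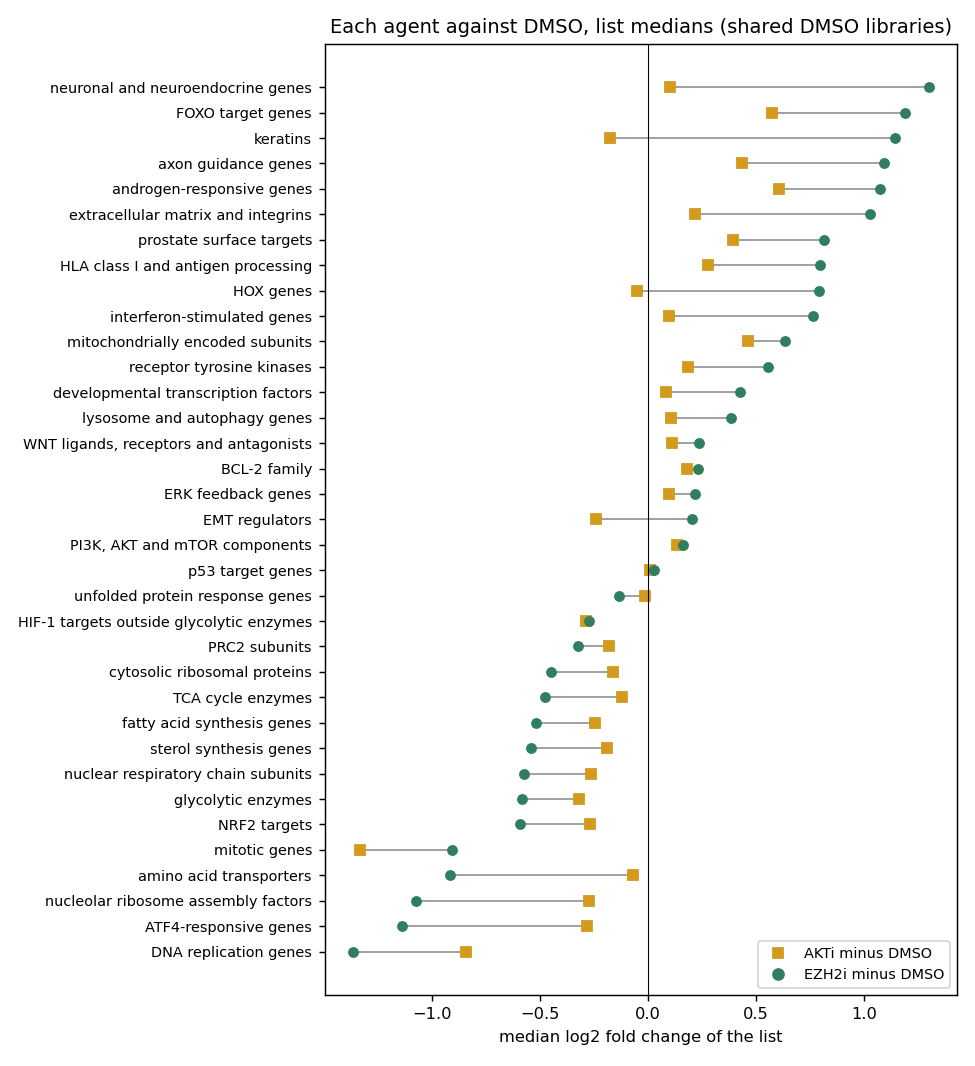
For each gene list the median over tested members of the log2 fold change is drawn for AKTi against DMSO (squares) and EZH2i against DMSO (circles), joined by a line, with lists ordered by the EZH2i value. Most circles lie further from 0 than their squares on the same side, mitotic genes (-1.33 against -0.91) and HIF-1 targets (-0.29 against -0.27) have the square further out, and for keratins, HOX genes and EMT regulators the points lie on opposite sides of 0.

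Androgen-responsive genes were above DMSO with both agents, with medians of 0.61 with AKTi and 1.08 with EZH2i, and 16 of 25 were higher with EZH2i than with AKTi, 5 lower (median 0.36). ACPP (ACP3), prostatic acid phosphatase, had 5349, 5736 and 5847 with EZH2i, 885, 846 and 824 with AKTi and 284, 354 and 282 in DMSO (2.73, SE 0.065, adjusted p = 3.15e-28), and FKBP5, an androgen-induced cochaperone, was lower with EZH2i (log2 fold change -0.58, SE 0.06, adjusted p = 2.86e-10). The luminal keratin genes KRT8 (0.98, SE 0.056, adjusted p = 5.24e-17) and KRT18 (0.47, SE 0.056, adjusted p = 6.67e-09) were higher with EZH2i, and 4 of 5 tested keratin genes (20 listed) were higher, KRT80 most (2.70, SE 0.17, adjusted p = 3.96e-16). Testing every gene with at least 1 count gave 7 called keratins. Genes of prostate surface targets were mixed, with 6 of 13 higher and 5 lower (median 0.27). STEAP1, a target of antibodies and T-cell engagers, was lower (log2 fold change -0.65, SE 0.059, adjusted p = 8.73e-12), DLL3 was lower (log2 fold change -0.89, SE 0.14, adjusted p = 2.73e-06) and PSCA was higher by 1.04 (SE 0.17, adjusted p = 1.75e-06). F3, tissue factor, was at 0 in every AKTi and DMSO library and had 19.5, 13.3 and 11.2 with EZH2i, at least 4.27-fold higher than AKTi.

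Neuronal and neuroendocrine genes were higher with EZH2i in 6 of 10 tested (30 listed), with none lower and the highest median of the 35 lists (0.91). Only 3 were called when 10 counts were required in every library. The list was led by SYT4 and by L1CAM, a neural adhesion molecule (2.11, SE 0.49, adjusted p = 0.000476). Synaptophysin (SYP), a classical neuroendocrine marker, did not pass the test, with 31.4, 41.7 and 32.0 normalized counts against 26.8, 31.9 and 20.3 (adjusted p = 0.272).

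Of 28 interferon-stimulated genes 15 were higher with EZH2i and 2 lower (median 0.47), and the 17 called fell to 9 when 10 counts were required in every library. Of 17 genes of HLA class I and antigen processing 8 were higher and 2 lower (0.34). IFI44 was higher from a low level, at 45.5, 32.2 and 41.7 with EZH2i against 1.17, 2.28 and 3.39 with AKTi and 4.38, 5.98 and 3.95 in DMSO (4.05, SE 0.51, adjusted p = 1.97e-08). PSMB8, a subunit of the immunoproteasome, was higher by 1.77 (SE 0.31, adjusted p = 9.01e-06). The RNA sensor gene IFIH1 was lower (log2 fold change -0.77, SE 0.14, adjusted p = 2.31e-05) as was the peptide transporter gene TAP2 (-0.74, SE 0.14, adjusted p = 2.49e-05). Lysosome and autophagy genes were higher in 20 of 32 and lower in 1 (median 0.28), with GABARAPL1, an autophagosome protein, at 0.97 (SE 0.076, adjusted p = 2.4e-13), and TFEB, the transcription factor of lysosome genes, at 0.82 (SE 0.13, adjusted p = 2.21e-06). ATG9A was the 1 lower gene (-0.31, SE 0.075, adjusted p = 0.000631).

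Developmental genes that passed the filter, from the class that PRC2 is known to hold silent, were higher with EZH2i in many but not all families. Listed HOX genes and developmental factors that the filter left out had at most 79 counts (SIX2) summed over the 12 libraries. Some of them, such as HOXD3, HOXD9, HAND1 and NEUROD1, had 0 in all arms, so the counts below do not describe the whole class. Of 25 tested HOX genes (39 listed), 12 were higher and 1 lower (median 0.70), with medians against DMSO of -0.05 with AKTi and 0.79 with EZH2i. HOXA9 had 32.5, 19.9 and 23.1 normalized counts with EZH2i and 9.33, 11.4 and 6.77 with AKTi (1.44, SE 0.45, adjusted p = 0.00701). The lower member was HOXB13, the HOX gene of prostate identity and by far the most abundant of those named, with 7941, 6987 and 7264 against 8644, 9287 and 9555 (-0.31, SE 0.055, adjusted p = 1.25e-05). In the homeobox family as the count table assigns it, 40 of 90 tested genes were higher and 15 lower (median 0.35), whereas in the C2H2 zinc finger family 95 of 517 were higher and 103 lower (median -0.003). Of 52 tested developmental transcription factor genes (88 listed), 20 were higher and 10 lower (median 0.37). TWIST1, a mesenchymal regulator, held 1 count in the AKTi arm against 26 with EZH2i, a ratio of 20.5 with a 95% counting interval of 3.37 to 842, and DLX1 was lower with EZH2i (log2 fold change -1.46, SE 0.16, adjusted p = 1.44e-09).

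Genes of axon guidance and of the matrix followed. Axon guidance genes were higher in 19 of 28 and lower in 2 (median 0.81). SEMA5A was at 0 in every AKTi library and had 18.4, 42.7 and 26.8 normalized counts with EZH2i, at least 8.53-fold higher, whereas SEMA3G (-1.29, SE 0.13, adjusted p = 1.37e-10) and ROBO3 (-1.18, SE 0.17, adjusted p = 4.96e-07) were lower with EZH2i, and both were above DMSO with AKTi (0.99 and 1.00). Extracellular matrix and integrin genes were higher in 25 of 39 and lower in 5 (median 0.54). COL12A1, a fibril-associated collagen, had 223, 296 and 305 with EZH2i and 23.3, 21.6 and 13.5 with AKTi (3.82, SE 0.21, adjusted p = 1.16e-17), and ITGA2, a collagen receptor subunit, was lower (log2 fold change -0.93, SE 0.098, adjusted p = 3.79e-10). The sum of the 7 fibroblast markers was also higher in EZH2i, at 18.8 to 20.5 CPM against 7.64 to 8.97. Not every marker rose, since PDGFRB was lower with EZH2i. COL1A2 was at 0 and 4 of the 7 were under 1 CPM in all 6 libraries. The part of these markers in the matrix result was not tested. WNT ligands, receptors and antagonists were split, with 12 of 26 higher and 8 lower (median 0.22). WNT5A was higher by 3.12 (SE 0.17, adjusted p = 7.66e-18) and WNT10B was lower (log2 fold change -1.41, SE 0.16, adjusted p = 2.09e-09). EMT regulators were higher in 8 of 13 and lower in 3 (median 0.30), with GRHL3, an epithelial factor, at 59 counts with EZH2i and 3 with AKTi (ratio 15.5, 95% counting interval 5.06 to 77.4), beside TWIST1. The 11 called EMT regulators were 7 with 10 counts required in every library. Since that list mixes epithelial factors such as GRHL3 with mesenchymal ones such as TWIST1, its counts and median give no direction for EMT.

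The clustered protocadherins on chromosome 5, neighbouring genes of neuronal cell recognition, were named after their values were seen. Of 16 genes of the beta cluster (141094578 to 141249365 on hg38), 10 passed the filter, and these 10 were at least 2-fold higher with EZH2i than with AKTi, with log2 fold changes of 2.38 to 4.88 and a median of 3.43 (8.99% of all tested genes were at least 2-fold higher). They were near silent without EZH2i, so that count is no measure of how general the difference is. PCDHB5 had 136, 153 and 189.9 normalized counts with EZH2i, 9.33, 1.14 and 5.64 with AKTi and 1.09, 0 and 3.16 in DMSO (4.88, SE 0.33, adjusted p = 4.43e-15), and PCDHB2 had 125, 123 and 104, 4.67, 4.55 and 15.8 and 4.38, 2.39 and 2.37 (3.78, SE 0.3, adjusted p = 2.98e-13). Both were near 0 in vehicle. In the gamma cluster, whose genes share their last exons and so could share reads, 12 of 19 tested genes (22 in the table) were higher and none lower (median 1.41). The beta genes have high sequence identity, their counts are low, and the 10 are neighbours that are not independent of each other.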

How the data were processed

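Poly(A) RNA of 12 C4.2B libraries was sequenced. The authors aligned reads to hg38 with STAR and counted them per gene with HTSeq. Versions, annotation release and strand setting are not given in the sources used here, so overlapping and antisense genes are uncertain. The deposited raw counts were tested, and the deposited normalized signal (counts divided by 1 DESeq2 size factor per library) gives the values per library.

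Genes passing filterByExpr (minimum count 10, total 15) were fitted in edgeR 4.0.16 (TMM, quasi-likelihood, 4 arm means over 12 libraries), and EZH2i minus AKTi was the contrast, with Benjamini-Hochberg adjustment at 0.05. SE is the absolute log2 fold change over the root of F. DESeq2 1.42.0, other scalings, filters and left-out libraries were alternatives. On simulated data with 196 genes changed 2-fold among 16139, edgeR recovered 149 (76%) with 9 false calls. That simulation changed few genes, balanced in direction, while 50.4% of tested genes were called here. It cannot show how scaling or false calls behave in such data. Within each arm, replicates differed beyond counting noise. Counting intervals are exact and cover counting error only, since reads carried no molecular identifiers.

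Members, gene lists, motifs and tests were chosen with earlier results of these data known. Named genes were the 12 largest and 12 smallest log2 fold changes among protein-coding genes whose arms did not overlap and whose mean level reached 1 log2 CPM, 3 and 3 lincRNAs (in place of lncRNA, a type the table does not use), up to 2 extremes in each direction per list, and fixed drug target and pathway genes. Some of these genes are not reported here. List extremes whose call depended on 1 library or on scaling were not named. Genes with printed promoters and the protocadherins were named after their values were seen. No pairing of the libraries by the letters A, B and C was seen, and the sources do not settle it.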

Additional observations from a re-analysis of the deposited data

How the results depend on the processing

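The counts of genes higher (4226) and lower (4170) with EZH2i stayed within 1.5 times under every alternative run, with 3560 to 3901 higher and 3898 to 4261 lower on leaving out 1 library. DESeq2 called 8180 genes, of which 8160 were shared with edgeR in the same direction. Requiring 10 counts in every library left 13359 genes and 970 at least 2-fold differences (1981 otherwise), with 640 genes at least 2-fold higher, since genes silent in 1 arm were removed. With that filter the called members were 3 of ERK feedback genes (5 otherwise), 9 of interferon-stimulated genes (17), 3 of neuronal genes (6) and 7 of EMT regulators (11), and testing every gene with at least 1 count gave 7 called keratins (4). Called mitochondrially encoded subunits (5) were 2 with DESeq2, 10 with library size alone and 2 to 6 on leaving out 1 library. No list median of at least 0.1 in size changed sign. No pairing by the letters of the libraries was seen (correlations of same-letter deviations -0.058 to 0.069). These were taken over all tested genes, where counting noise can hide shared deviations, so they cannot exclude pairing. A fit with the replicate block called 4172 higher and 4148 lower, and EZH1 passed in it (adjusted p = 0.0459). Groups of 3 could not be tested for single outlying libraries. Genes with few counts, such as TWIST1, are limited by depth.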
